A study of Mus musculus with 10 samples.

Results

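The 10 genes followed here through the deposited H3K27me3 peak lists were the transcription factors and cofactors *Cebpa*, *Cebpb*, *Cebpd*, *Cebpe*, *Runx1*, *Runx2*, *Runx3*, *Tal1*, *Lmo2* and *Gfi1*, which direct blood lineages other than, or in addition to, B cells. They were chosen by name, as 10 of the 37310 genes annotated by GENCODE on mm9, and all 10 symbols were found. Their H3K27me3 was measured as the number of bases covered by distinct peaks in a window from 5 kb upstream of the 5′ end of the gene to its other end. The series holds 5 mouse lymphoma lines, each with 1 H3K27me3 ChIP-seq sample and 1 bisulfite sequencing sample, and the bisulfite samples were not analysed here. All lines carry the Eμ-Myc transgene, which drives c-Myc from an immunoglobulin enhancer in the B lineage, and are Cdkn2a-/- on the C57BL/6J strain. The parental line was cultured from a lymphoma of such a mouse. R100, R500, R1000 and R4000 are resistant clones taken from it at 4 steps, 100, 500, 1000 and 4000 nM, as the dose of mafosfamide, an alkylating agent, was raised over 34 days, and by the study's methods all were grown without the drug for ChIP-seq. Each group is therefore 1 cell line, and the resistant lines come from steps of 1 escalation.

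H3K27me3 is the trimethyl mark that polycomb repressive complex 2 (PRC2) places on histone H3, mostly over CpG-rich promoters of genes that a cell lineage keeps silent. C/EBP factors direct granulocyte and monocyte differentiation, Runx factors act with Cbfb in stem cells, T cells and bone, Tal1 and Lmo2 sit together in the complex that drives stem cell and erythroid genes, and Gfi1 is a repressor used in granulocytes and lymphocytes. In mature B cells Tal1 and most C/EBP genes are normally silent, whereas Runx1 and Runx3 are expressed.

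The lists give positions only, with no height, score or read count, so the depth behind them is unknown and a covered base shows that a peak was found, not how strong it was. The 5 lists held between 6820 (R4000) and 25180 (R100) distinct peaks over 1.07 to 5.04 Mb. Relative to the parental line, the whole list covered 3.09 times as many bases in R100, 2.78 times in R500, 0.988 times in R1000 and 0.658 times in R4000. Each line has 1 list, so the spread between replicates is not known and none of the differences between lines was tested. For a single gene, lower coverage in R1000 or R4000 cannot be told apart from the shorter lists of these lines.

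*Tal1* was covered in every line and the most widely of the 10, *Runx2* and *Runx3* were also covered in every line, and *Cebpd* and *Lmo2* had no peak in the parental line and a peak in each of the 4 resistant lines. *Cebpb*, *Cebpe*, *Runx1* and *Gfi1* held at most 150 bp in any line, and *Cebpa* held none. In the parental line 3 members had a peak, against 9.72% of all annotated genes. R100 marked 8 members (25.0% of all genes), R500 8 (20.2%), R1000 6 (12.0%) and R4000 6 (10.4%). Of the 37310 annotated genes 22380 are protein-coding, and of the 10 members 8 are annotated so. The shares of all genes thus include genes that are not protein-coding. Shares for protein-coding genes of like window length were not computed. The median over the members was 0 bp in the parental line and 650, 675, 200 and 125 bp in the resistant lines in order of dose, where the median over all genes was 0 bp in each line. Genes with a peak in all 5 lines made up 5.24% of the annotation and 3 of the members. Genes without a parental peak that had one in at least 1 resistant line made up 21.9%, and 6 of the members were of this kind. Those without a parental peak that had one in all 4 resistant lines were rarer, at 1.27% of genes, with 2 of the members.

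**Figure D1:**
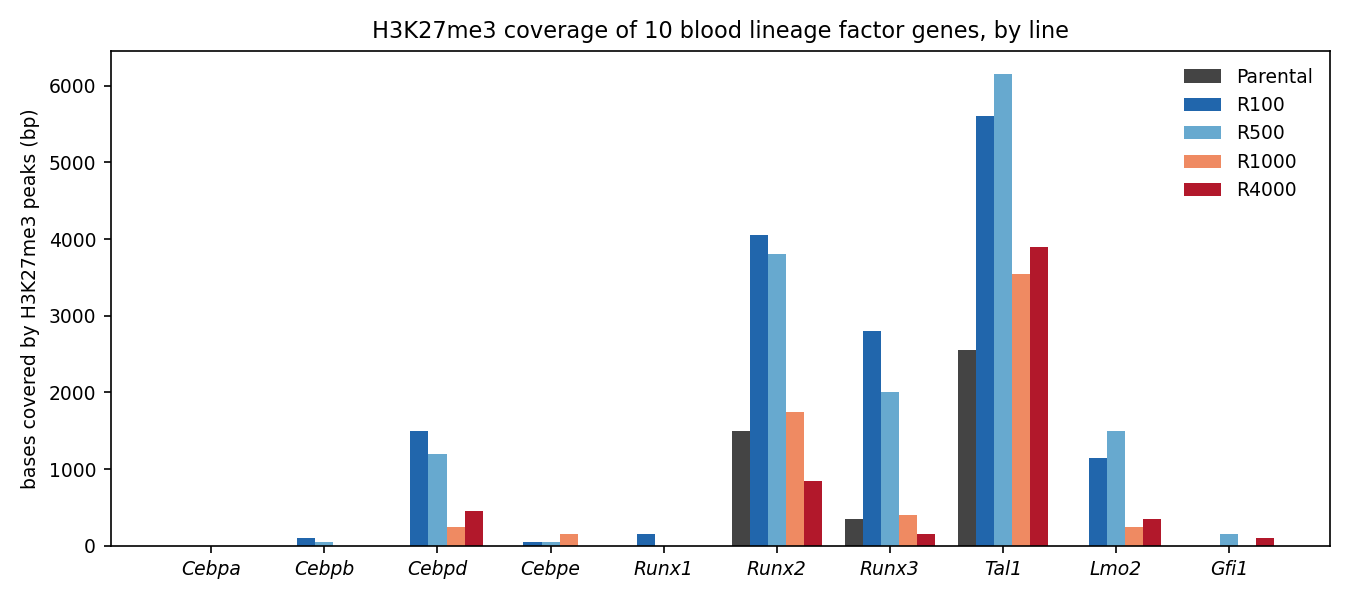
Bases covered by H3K27me3 peaks (bp, vertical axis, bars from 0) in the window of each of the 10 genes, with 1 bar per line. *Tal1* has the highest bar in every line, from 2550 bp in the parental line to 6150 bp in R500, *Cebpa* has none, and *Cebpd* and *Lmo2* have bars in the resistant lines alone.

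*Tal1*, on chromosome 4 from 114729031 to 114744360 on the plus strand (ENSMUSG00000028717.6), encodes a basic helix-loop-helix factor that pairs with E proteins such as E2a and is required to form blood stem cells and red cells. Its window of 20.3 kb held 2550 covered bp in the parental line, and R100 held 5600 bp, R500 6150 bp, R1000 3550 bp and R4000 3900 bp. All 4 resistant lines therefore covered more of *Tal1* than the parental line did, with ratios of 2.20, 2.41, 1.39 and 1.53 in order of dose. In R100 and R500 this was the usual direction. Of the 460 genes with at least 1000 bp covered in the parental line, 87.2% were covered over more bases in R100 and 92.2% in R500. In R1000 the share was 34.6% and in R4000 it was 12.6%, so *Tal1* lay with the minority in both of these lines. Ordered by covered bases among all genes, *Tal1* was 82nd in the parental line, 76th in R100, 56th in R500, 45th in R1000 and 22nd in R4000. The other member with at least 1000 bp in the parental line, *Runx2*, was covered over more bases in R1000 and fewer in R4000.

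The same stretch of *Tal1* carried a peak in each line. A peak from 230 bp upstream to 969 bp downstream of the 5′ end, 1200 bp wide, was found in the parental line, and R100 and R500 had one of 1300 bp from the same starting point. R1000 had one of 1250 bp, and R4000 one of 1000 bp that began 30 bp upstream. In the parental line it contained 44 exonic bp, none of them coding, and lay otherwise in the first intron and just upstream of the gene. In all, 1350 bp of the window were covered in all 5 lines, and 1850 bp in the 4 resistant lines. Of the 2550 parental bases, R100 covered 78.4% again, R500 84.3%, and R1000 and R4000 80.4% each. Most of the bases added in the resistant lines lay further out. In the first 4000 bp of the gene, coverage was 1970 bp in the parental line and between 2120 and 2750 bp in the resistant lines. From 4000 to 9000 bp, a stretch with coding exons, the parental line had 150 bp in 3 peaks of 50 bp, R100 had 1870 bp, R500 2120 bp, R1000 600 bp and R4000 1050 bp. The widest of these peaks, 1800 bp in R500, covered 446 coding bp. The upstream 5 kb held 430 bp in the parental line and 980, 1630, 830 and 630 bp in the resistant lines in order of dose. The last 6330 bp, with the 3′ end of the gene, held no peak in any line.

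**Figure D2:**
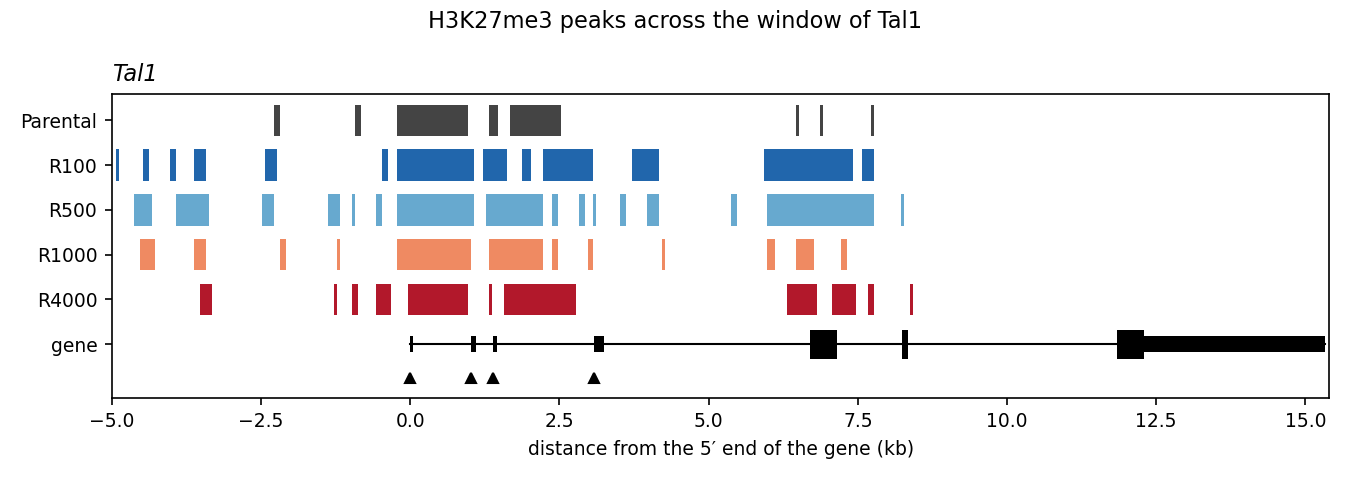
H3K27me3 peaks (coloured boxes, 1 row per line) along the window of *Tal1*, against distance from its 5′ end in kb. In the gene row, thin boxes are untranslated and thick boxes coding exons, and triangles mark annotated transcript starts. A peak spans the first start in every line, and the stretch 5 to 9 kb downstream is covered widely in R100 and R500 and in short peaks in the parental line.

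The sequence below lies in the part of *Tal1* that was covered in all 5 lines, and it is shown because only *Tal1* and *Runx2* had any base covered in every line. It is 300 bp of the first intron, mm9, chr4:114729388-114729687, plus strand, with each CpG in capitals. It holds 28 CpG, and the ratio of observed to expected CpG is 0.868.
Tal1: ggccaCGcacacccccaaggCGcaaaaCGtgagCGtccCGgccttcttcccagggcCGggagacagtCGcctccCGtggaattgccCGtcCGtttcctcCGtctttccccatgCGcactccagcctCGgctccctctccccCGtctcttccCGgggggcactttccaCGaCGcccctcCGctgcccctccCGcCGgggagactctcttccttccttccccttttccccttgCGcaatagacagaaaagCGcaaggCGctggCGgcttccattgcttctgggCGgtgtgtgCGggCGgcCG

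*Lmo2*, the partner of Tal1, encodes a LIM-only protein that bridges Tal1 and Gata factors without binding DNA. It lies on chromosome 2 from 103798143 to 103822035, plus strand (ENSMUSG00000032698.8). The parental line had no peak in its window of 28.9 kb. R100 covered 1150 bp, R500 1500 bp, R1000 250 bp and R4000 350 bp, so that all 4 resistant lines had peaks, the wider ones in R100 and R500. The nearest parental peak was 32.5 kb downstream of the 5′ end of *Lmo2*, inside the neighbouring gene 4931422A03Rik. *Lmo2* has a first promoter and a second one that begins 11542 bp further downstream, where 8 of its 10 annotated starts lie. The peaks lay at the second. Within 2 kb of its starts lay all the covered bases of R100, R500 and R4000 and 150 bp of those of R1000, and within 2 kb of the first promoter there was no peak in any line. The widest peaks, 800 bp in R100 and 1200 bp in R500, both included coding sequence of *Lmo2*, 258 bp of it in R500. The region is also within 4931422A03Rik, which is annotated on the opposite strand, so the peaks belong to the span of both genes. The stretch covered in all 4 resistant lines was 50 bp, mm9, chr2:103810951-103811000, plus strand, and is shown with each of its 4 CpG in capitals because no other base of *Lmo2* was shared by these lines.
Lmo2: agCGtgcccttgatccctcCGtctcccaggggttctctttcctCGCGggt

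*Runx2*, the factor that directs bone formation and is also used by some blood cells, lies on chromosome 17 from 44632936 to 44951746 on the minus strand (ENSMUSG00000039153.9). Its window of 324 kb held 1500 covered bp in the parental line, and R100 held 4050 bp, R500 3800 bp, R1000 1750 bp and R4000 850 bp. R4000 was thus the only line below the parental line. Long windows meet peaks more often, and of the 1036 genes with a window of at least 200 kb, 20.6% had a parental peak and 34.7% had a peak in R100. In *Runx2* the peaks were concentrated in a small part of the window. A region of 6400 bp, from 44870251 to 44876650, held 1350 of the 1500 parental bases, all the bases of R100 and R4000, 3650 of those of R500 and 1700 of those of R1000. It surrounds the second, downstream promoter of *Runx2*, whose annotated starts lie 78149 to 80104 bp from the 5′ end. Within 2 kb of the first promoter no line had a peak. The transcript Gm10497 is annotated on the opposite strand over part of the region, and peaks of all 5 lines overlapped it. Of the parental bases, R100 covered 70.0%, R500 66.7%, R1000 36.7% and R4000 26.7%, a lower share than at *Tal1* in each line. In R4000 the peaks were 50 to 250 bp wide, while R100 had one of 1850 bp and R500 one of 1300 bp. A stretch that all 5 lines covered was 100 bp, mm9, chr17:44872001-44872100, printed from the minus strand with its 5 CpG in capitals.
Runx2: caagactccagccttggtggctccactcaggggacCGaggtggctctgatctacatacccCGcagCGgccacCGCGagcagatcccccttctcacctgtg

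*Runx3*, which represses Cd4 in cytotoxic T cells and is expressed in B cells, lies on chromosome 4 from 134676567 to 134733905, plus strand (ENSMUSG00000070691.4). The parental line covered 350 bp, R100 2800 bp, R500 2000 bp, R1000 400 bp and R4000 150 bp. The R100 value was 8 times the parental value, the largest ratio among the 3 genes covered in the parental line, and R4000 was below the parental line. Most covered bases fell in 2 places, and outside them were 1 peak of 150 bp in R500 and 1 of 50 bp in R100. One was a region of 2700 bp between the promoters, 19084 to 21783 bp into the gene, with no exonic base and at least 10 kb from any annotated start. Here the parental line covered 300 bp, R100 1750 bp, R500 1500 bp and R1000 350 bp, and R4000 had no peak. The other lay around the second promoter, which begins 31844 bp downstream of the 5′ end, with 50 bp in the parental line and 1000, 350, 50 and 150 bp in the resistant lines in order of dose. The single R4000 peak shared no base with the parental peaks. The first promoter had no peak within 2 kb in any line. A stretch of the intronic region covered in the parental line, R100, R500 and R1000 was 100 bp, mm9, chr4:134696601-134696700, plus strand. It is shown with its CpG in capitals because it lies away from any promoter, and it holds 3 of them, with a ratio of observed to expected CpG of 0.347.
Runx3: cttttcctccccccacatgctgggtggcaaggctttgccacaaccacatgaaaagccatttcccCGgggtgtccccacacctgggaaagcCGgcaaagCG

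*Runx1*, a factor needed for blood stem cells and used in B cells, lies on chromosome 16 from 92601712 to 92826311, minus strand (ENSMUSG00000022952.9). Its window of 230 kb, longer than that of *Runx3* (62.3 kb) and shorter than that of *Runx2*, held 150 bp in R100, as 1 peak of 100 bp near the first promoter and 1 of 50 bp near the second, and 0 bp in the other 4 lines. The nearest peak to its 5′ end was 782 kb away in the parental line, and R500, R1000 and R4000 had it at 255, 856 and 539 kb. The flanks of 50 kb on both sides of the window held no peak in any line.

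**Figure D3:**
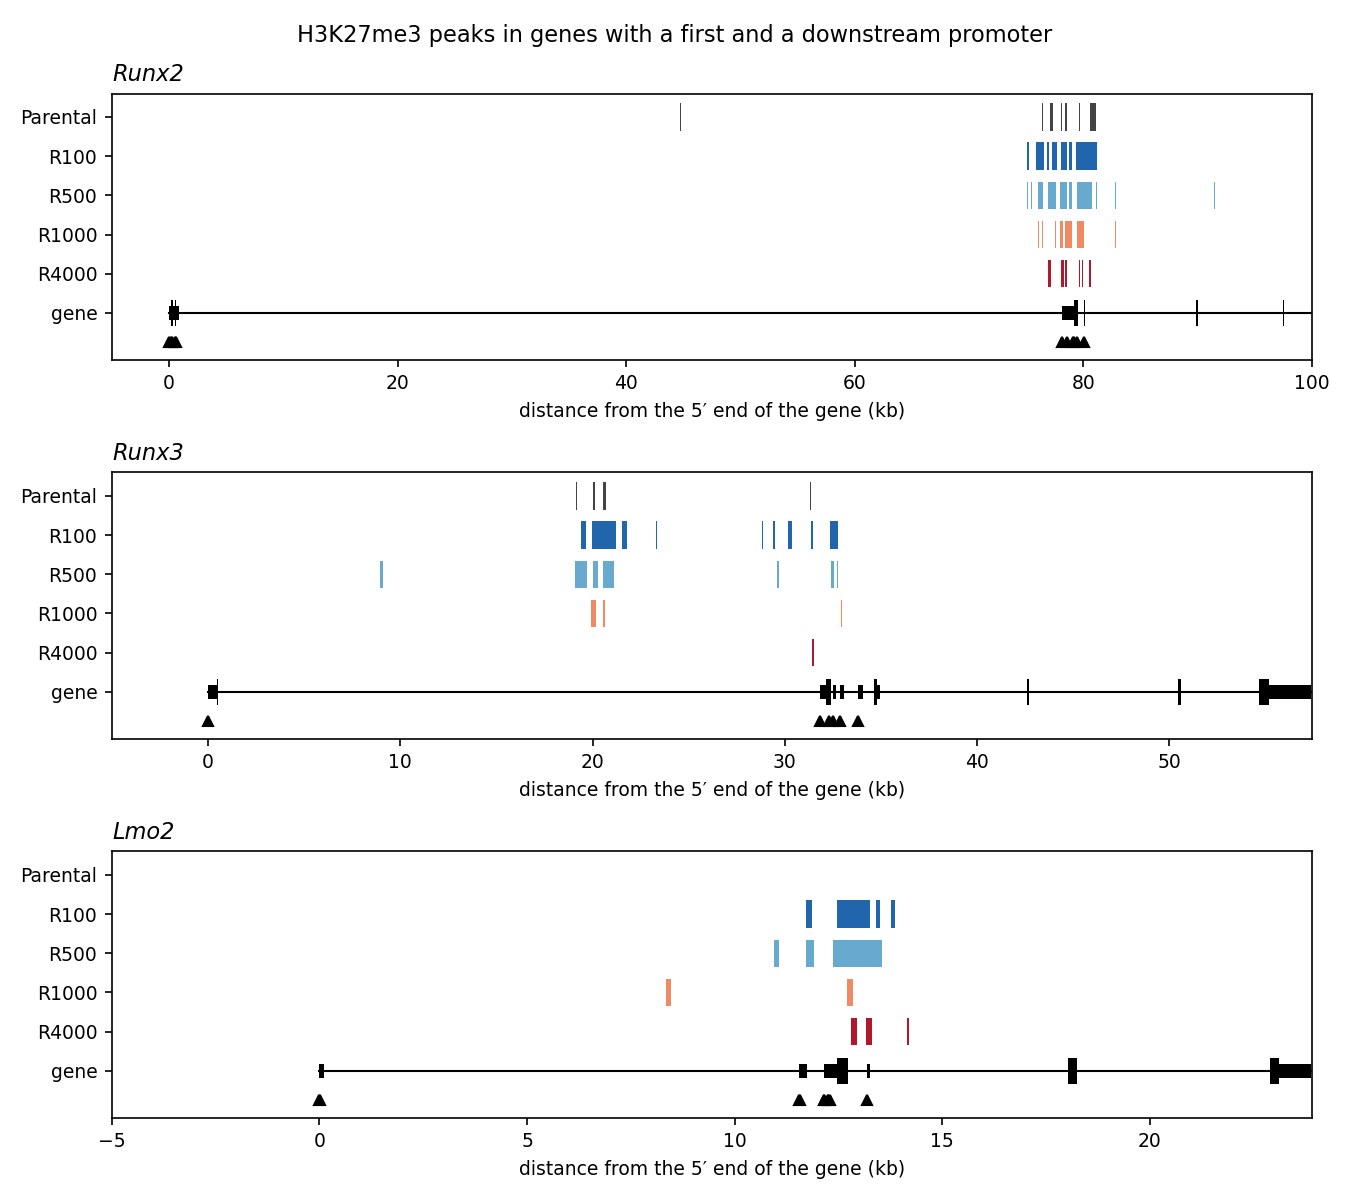
H3K27me3 peaks (coloured boxes, 1 row per line) in *Runx2*, *Runx3* and *Lmo2* against distance from the 5′ end in kb, with untranslated exons thin, coding exons thick and annotated starts as triangles. *Runx2* is shown up to 100 kb. Peaks gather around the downstream starts, and in *Runx3* also near 20 kb, while the first starts near 0 kb have none.

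Peaks at a downstream promoter with none at the first were not the usual arrangement in these lists. Among 5389 protein-coding genes whose first and last annotated promoters begin at least 10 kb apart, 624 had a parental peak within 2 kb of one or the other, and in 61 of them (9.78%) it was at the last promoter alone. R100 had 136 such genes of 2033 (6.69%), R500 98 of 1524 (6.43%), R1000 55 of 892 (6.17%) and R4000 50 of 782 (6.39%). *Runx2* and *Runx3* had this arrangement in all 5 lines and *Lmo2* in the 4 resistant lines. These promoters are annotated starts, and which of them the lines use was not measured.

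The C/EBP genes are short, with windows between 6.18 and 7.63 kb. *Cebpd*, whose product acts in monocytes and in the acute inflammatory response, was the only one of the 4 with more than 150 bp covered. It lies on chromosome 16 from 15887379 to 15888559, plus strand (ENSMUSG00000071637.4), and this annotation lists it as a pseudogene, with no coding part. The parental line had no peak there, and its nearest peak was 300 kb downstream. R100 covered 1500 bp, R500 1200 bp, R1000 250 bp and R4000 450 bp, so that no resistant line was without a peak. In R100 a peak of 1450 bp ran over the 5′ end and up to 871 bp downstream of it, and in R500 a peak of 1200 bp reached 721 bp downstream. The R4000 peak, 450 bp, spanned the 5′ end, and the R1000 peak, 250 bp, began 372 bp downstream of it, so that no base was shared by R1000 and R4000. The flanks of 50 kb held no peak in any line, and *Cebpd* was thus an isolated site. The 178 bp upstream of its 5′ end that R100, R500 and R4000 covered, mm9, chr16:15887201-15887378, plus strand, are shown with their 17 CpG in capitals.
Cebpd: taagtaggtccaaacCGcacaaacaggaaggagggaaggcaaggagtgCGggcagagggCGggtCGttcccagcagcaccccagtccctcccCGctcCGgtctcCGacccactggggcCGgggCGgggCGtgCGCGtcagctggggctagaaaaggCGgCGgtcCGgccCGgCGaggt

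*Cebpa*, the factor that commits progenitors to the granulocyte and monocyte fate, stood at the other end. On chromosome 7 from 35904312 to 35906945, plus strand (ENSMUSG00000034957.9), it had no peak in its window in any line. The nearest peak to its 5′ end was 130 kb away in the parental line, and R100 and R500 had it at 48.5 and 63.1 kb, R1000 and R4000 at 212 and 214 kb. A value of 0 says only that no peak was listed, since the depth that a peak required is unknown. Its promoter was nonetheless CpG-rich. The 300 bp before its 5′ end, mm9, chr7:35904012-35904311, plus strand, hold 27 CpG, given in capitals, and are shown for comparison with *Cebpd* and *Tal1*, which have a like density and were covered.
Cebpa: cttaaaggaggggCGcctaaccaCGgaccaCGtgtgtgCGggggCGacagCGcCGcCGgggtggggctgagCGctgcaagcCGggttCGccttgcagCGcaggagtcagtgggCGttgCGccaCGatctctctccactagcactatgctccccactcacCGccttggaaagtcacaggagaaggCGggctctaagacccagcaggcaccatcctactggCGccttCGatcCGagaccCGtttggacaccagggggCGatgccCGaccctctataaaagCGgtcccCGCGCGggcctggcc

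*Cebpb*, used in macrophages and in the liver, lies on chromosome 2 from 167514415 to 167515918, plus strand (ENSMUSG00000056501.3). R100 had a peak of 100 bp and R500 one of 50 bp, both starting 786 bp downstream of the 5′ end and wholly in coding sequence, and the other 3 lines had none. The gene Tmem189, on the opposite strand, is annotated over the same bases. *Cebpe*, which acts late in granulocyte maturation, lies on chromosome 14 from 55329200 to 55331011, minus strand (ENSMUSG00000052435.6). R100 and R500 had a peak of 50 bp each and R1000 one of 150 bp, and the parental line and R4000 had none. These peaks lay at least 2190 bp upstream of the 5′ end, and only those of R500 and R1000 overlapped. The 50 bp they shared, mm9, chr14:55333851-55333900, printed from the minus strand, hold no CpG, in contrast to the stretches above.
Cebpe: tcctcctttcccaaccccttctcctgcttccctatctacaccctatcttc

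**Figure D4:**
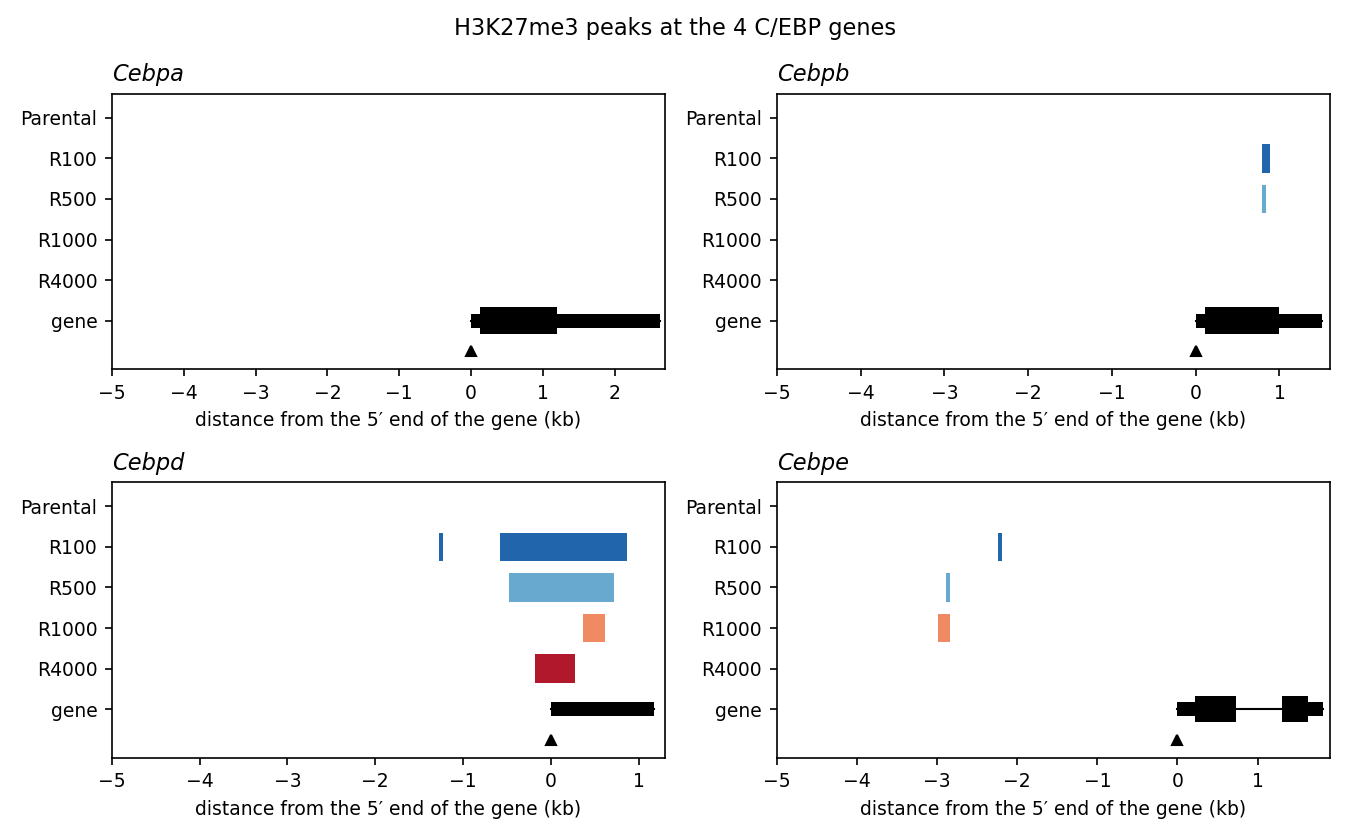
H3K27me3 peaks (coloured boxes, 1 row per line) at the C/EBP genes against distance from the 5′ end in kb, with untranslated exons thin, coding exons thick and the annotated start as a triangle. *Cebpd* has a peak in all 4 resistant lines, *Cebpb* and *Cebpe* have peaks of at most 150 bp, and *Cebpa* has none.

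*Gfi1*, a zinc-finger repressor, lies on chromosome 5 from 108145674 to 108155056, minus strand (ENSMUSG00000029275.10), and is annotated here as a processed transcript. It held 150 bp in R500 and 100 bp in R4000, and 0 bp in the parental line, R100 and R1000. The R500 peak ended 395 bp upstream of the 5′ end, inside the lincRNA A430072P03Rik, and the R4000 peak lay in an intron, 1306 bp downstream. The 2 peaks shared no base. The members most alike in which lines bore a peak were *Runx2*, *Runx3* and *Tal1*, covered in all 5 lines, and *Cebpd* and *Lmo2*, covered in the same 4 lines.

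Over the 10 genes together, the parental list covered 4400 bp, that of R100 15400 bp, of R500 14900 bp, of R1000 6350 bp and of R4000 5800 bp. These are 3.50, 3.39, 1.44 and 1.32 times the parental sum, where the whole lists gave 3.09, 2.78, 0.988 and 0.658 times. The group thus stayed above the parental sum in R1000 and R4000, where the lists as a whole did not. *Tal1* made up 58.0% of the parental sum and 36.4%, 41.3%, 55.9% and 67.2% of the sums of the resistant lines in order of dose. Without *Tal1* the ratios were 5.30, 4.73, 1.51 and 1.03, so that in R4000 the sum over the other 9 genes, 1900 bp, was close to the parental 1850 bp. With peaks within 1000 bp of each other joined, the ratio in R4000 for all 10 genes was 0.949, below the parental line.

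**Figure D5:**
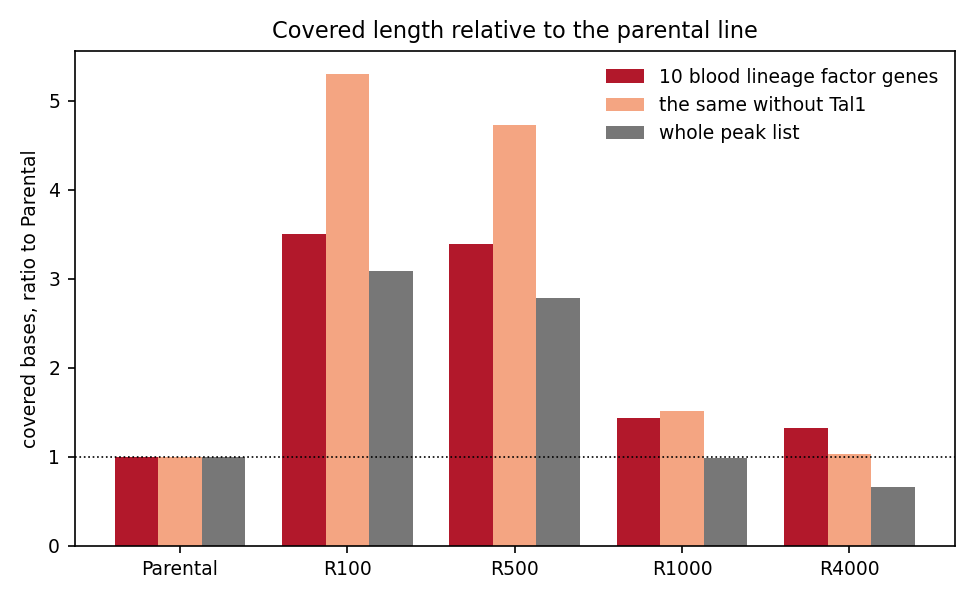
Bases covered in each line divided by those in the parental line (vertical axis, bars from 0, dotted line at 1) for the 10 genes, the same without *Tal1*, and the whole peak list. In R4000 the ratio is 1.32 for the 10 genes, 1.03 without *Tal1* and 0.658 for the whole list.

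The promoters of the 10 genes were compared by sequence, which had no part in choosing them. Starts of a gene less than 3 kb apart were taken as 1 promoter, which gave 14 promoters, and the observed to expected CpG ratio was computed over 1 kb around the first start of each. It was at least 0.6 at 9 of them and lower at 5. The 9 were those of *Cebpa* (0.89), *Cebpb* (1.01), *Cebpd* (0.86), *Tal1* (0.80) and *Gfi1* (0.62) and the second promoters of *Runx1* (0.86), *Runx2* (0.91), *Runx3* (0.95) and *Lmo2* (0.66). The 5 were *Cebpe* (0.37) and the first promoters of *Runx1* (0.34), *Runx2* (0.16), *Runx3* (0.36) and *Lmo2* (0.17). The median was 0.33 over the 5′ ends of 37308 annotated genes, 1 start per gene, and 0.55 over those of protein-coding genes. Second promoters are thus not in this background. Within 2 kb of their starts, 3 of the 9 CpG-rich promoters had a parental peak, and 7, 7, 5 and 6 had one in the resistant lines in order of dose. Of the 5 CpG-poor promoters 1, the first of *Runx1*, had a peak in R100, and none had one in the other 4 lines. Over all genes, with 2 kb on both sides of 1 start per gene, the same direction was seen. The windows of the 14 promoters, some with several starts, ran from 4001 to 7083 bp, so the shares are not for windows of like length. Of the 11554 starts with a ratio of at least 0.6, 13.3% had a parental peak within 2 kb, and 46.4%, 34.8%, 21.1% and 19.6% had one in the resistant lines in order of dose. Of the 25754 starts below 0.6 the shares, with the parental line first, were 3.25%, 8.64%, 7.24%, 3.99% and 3.15%. A CpG-rich promoter did not by itself come with peaks in these lines, as *Cebpa* had none and the second promoter of *Runx1* had 50 bp in R100 alone.

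Short motifs were counted on both strands in the 300 bp from 250 bp before to 50 bp after the start of each of the 14 promoters. The core that Runx proteins bind, TGTGGT, was found at 4 of them, namely the first promoters of *Runx1*, *Runx2* and *Runx3* and the promoter of *Gfi1*, against 17.1% of all annotated promoters. The E-box CANNTG, to which Tal1 and E2a bind, was found at 8 (73.5% of all), and its form CAGGTG, which is also counted as an E-box, at 2 (20.2%). The Gata core AGATAA was found at 2, *Tal1* and the first promoter of *Lmo2* (12.8%). The C/EBP half-site TTGCGC was found at 4 (5.73%), at *Cebpa*, *Cebpd*, *Gfi1* and the second promoter of *Lmo2*, and CGCG at 8 (34.0%). Both of these motifs contain CpG, and 9 of the 14 promoters were CpG-rich, against 11554 of the 37308 background starts. Shares for starts of like CpG content were not computed. The motif counts are matches of letters in a short window. Of the 4 promoters with TGTGGT, that of *Gfi1* had a peak within 2 kb of a start in R500 and R4000, the first promoter of *Runx1* had one in R100, and the other 2 had none.

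Genes that work with these factors, or mark the lineages they direct, were looked at in the same windows from lists of named genes, and their counts are to be read against the share of all genes with a peak given above, 9.72% in the parental line and 25.0%, 20.2%, 12.0% and 10.4% in the resistant lines in order of dose. Of 16 partners and cofactors, 2 had a parental peak, and R100 marked 9, R500 6, R1000 2 and R4000 3. These are 12.5% of the list in the parental line and 56.2%, 37.5%, 12.5% and 18.8% in the resistant lines, so that the parental and R1000 shares were near those of all genes. The most covered were *Tcf12*, an E protein that pairs with Tal1, with 50 bp in the parental line and 500, 450, 250 and 200 bp in the resistant lines in order of dose. *Lyl1*, the close relative of Tal1, followed with 0, 450, 400, 150 and 150 bp. *Tcf3*, which encodes E2a, had 200 bp in R100 and 300 bp in R500. *Cbfb*, the common partner of the Runx proteins, had 200 bp in R100 and 100 bp in R4000. The median over this list was 75 bp in R100 and 0 bp in each other line.

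Genes of granulocytes and monocytes, many of them targets of C/EBP factors, numbered 14, of which 2 had a parental peak, and R100 marked 6, R500 3, R1000 3 and R4000 1. The shares were 14.3% in the parental line and 42.9%, 21.4%, 21.4% and 7.14% in the resistant lines, against 20.2% of all genes in R500 and 10.4% in R4000, and the median of the list was 0 bp in each line. *Prtn3*, a granule protease, was the most covered, with 50, 600, 800, 150 and 100 bp in the order of the lines, followed by *Irf8*, a monocyte and B-cell factor, with 300 bp in R100 and 250 bp in R500, and *Spi1* (PU.1, listed as Sfpi1), with 150 bp in R100 and 50 bp in R1000. *Mpo*, *Elane* and *Csf1r* had no peak in any line. Of 12 erythroid and megakaryocyte genes, 2 had a parental peak, and R100 marked 4, R500 4, R1000 1 and R4000 2, with shares of 16.7%, 33.3%, 33.3%, 8.33% and 16.7% from the parental line on and a median of 0 bp in each line. *Epor*, the erythropoietin receptor gene, held 100, 1200, 400, 150 and 200 bp, *Itga2b* 40, 350, 650, 0 and 40 bp, and *Ermap* 350 bp in R500. *Klf1* and the globin genes *Hba-a1* and *Hbb-b1* had none. No gene of these lists reached the coverage of *Tal1* in the same line.

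The lines are labelled as B cells, and the lists can show only which marker genes bore a repressive mark. Of 12 B-cell genes, 1 had a peak in the parental line, *Vpreb3* with 150 bp. R100 marked 6, R500 5, R1000 4 and R4000 4. The parental share, 8.33%, was near the 9.72% of all genes, and those of the resistant lines were 50%, 41.7%, 33.3% and 33.3%, with a median of 25 bp in R100 and 0 bp in the other lines. Among them, *Vpreb3* held 150, 400, 500, 450 and 300 bp in the order of the lines, and *Ebf1* 0, 900, 350, 0 and 100 bp. *Cd79a*, *Ms4a1*, *Blk* and *Blnk* had no peak in any line. Of 10 T-cell genes, 2 had a parental peak, and R100 marked 5, R500 7, R1000 2 and R4000 2, with shares of 20.0%, 50%, 70.0%, 20.0% and 20.0% from the parental line on and medians of 25 and 125 bp in R100 and R500 and of 0 bp elsewhere. *Tcf7* held 450, 1850, 1100, 200 and 100 bp, *Cd4* 200, 700, 150, 0 and 0 bp, and *Zbtb7b* 200 bp in each of R100, R500 and R1000. Peaks over B-cell marker genes accompany those over the 10 factors in R100, R500, R1000 and R4000 alike, and their part in the values above was not tested.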

How the data were processed

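The authors called H3K27me3 peaks from immunoprecipitated against input libraries, with Poisson statistics in tiled windows, and deposited 1 list of start and end positions per line, with no count, score or p-value. Per the labels, Bowtie and mm9 were used. The study's methods set a cut on bins and p to call a promoter enriched, and the study made biological replicates. Whether that cut was applied to the deposited lists, and whether a list pools replicates, is not given in the sources used here. The R100 and R500 lists held each peak 2 times, and distinct peaks were kept. All peaks lay within the chromosome lengths of NCBIM37, the mm9 assembly.

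Python 3.11.15 (pandas 2.3.3, numpy 2.4.6, matplotlib 3.10.9) was used to count covered bases and draw figures. The count was tested on simulated data, where 0 of 1000 windows differed from a base-by-base count. Genes, starts and exons were taken from GENCODE. Printed sequences were read from NCBIM37 outside untranslated exons, which all other counts include. *Runx2* has 2 gene identifiers there, and the longer was used. With 1 list per line no test was made. Depth is unknown.

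The 10 genes, the 5 gene lists and the measures were chosen with earlier results of these data known. Named are the 10 genes, the 3 most covered genes of each list, genes that overlap a window and, chosen after their values were seen, other genes of the lists. Some genes of the lists are not reported here by name. The alternatives were other peak widths, joined peaks, lists of equal number (the widest peaks of each line), other windows, a minimum of 150 bp, and sums without *Tal1* or *Runx2*.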

Additional observations from a re-analysis of the deposited data

Results flagged for a closer look

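*Runx2* and *Runx3* were covered over more bases than in the parental line in R100 and R500 and over fewer in R4000, where the difference was -650 bp for *Runx2* (850 against 1500 bp) and -200 bp for *Runx3* (150 against 350 bp). With 1 list per line, these opposite directions were not tested. They are also the directions of the whole lists, which covered 3.09 (R100), 2.78 (R500) and 0.658 (R4000) times the parental bases. The other members covered in R4000 had more bases there than in the parental line.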

How the results depend on the processing

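The depth and threshold of the lists are unknown, and no replicate lists were analysed. No paired analysis was possible because each line has 1 list and no test was made. Among the group's counts and ratios under an alternative, 68 stayed within 1.5 times (counts) or the Wilson interval of the covered bins (ratios), 26 moved further and 1 reversed. That interval treats covered bins of 50 bp as independent, although neighbouring bins belong to the same peak. It serves only as a yardstick and measures no spread between replicates or genes. Against 3, 8, 8, 6 and 6 members with a peak in the parental, R100, R500, R1000 and R4000 lines, the counts were 1, 3, 4, 2 and 2 in the 5 kb upstream alone and 1, 4, 4, 2 and 3 within 2 kb of the 5′ end. Among peaks of at least 500 bp R100 and R500 had 5 each, R1000 2 and R4000 1. With lists of equal number, which keep the 6820 widest peaks of each line, the parental line had 3, R100 and R500 5 each, and R1000 and R4000 6 each. R1000 and R4000 were then above R100 and R500. This setting keeps the R4000 list whole and drops the narrower peaks of the longer lists, so peaks of like width are not treated alike. The 150 bp of *Gfi1* in R500 were dropped, while its 100 bp in R4000 were kept. With at least 150 bp covered the parental line had 3, R100, R500 and R1000 6 each, and R4000 5. The summed ratio to the parental line was 2.04 in R100 and 2.12 in R500 within 2 kb of the 5′ end. In the 5 kb upstream R500 gave 5.37, R1000 2.28 and R4000 1.88. With peaks within 1000 bp joined R100 gave 2.25, R500 2.14, R1000 1.04 and R4000 0.949, the last a reversed direction. *Runx2* and *Runx3* in R1000 then also reversed, to -2200 bp and -850 bp against the parental line, from 250 and 50 bp. Joining counts the gaps between peaks as covered. Sums without *Tal1* or without *Runx2* were chosen after seeing the data, and without *Tal1* it was 5.30 in R100 and 4.73 in R500.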
